A study of Mus musculus with 6 samples.

Results

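The genes described here encode 7 proteins of the pathway that runs from the costimulatory receptor ICOS through phosphoinositide 3-kinase (PI3K) to the transcription factors FOXO1 and KLF2. They are *Pik3cd*, *Pik3r1*, *Inpp5d*, *Akt1*, *Foxo1*, *Foxo3* and *Klf2*, chosen by name, and all 7 were measured among the 25026 genes with a value in every library. They were compared between 3 RNA sequencing libraries of Bob1KO follicular helper T (Tfh) cells and 3 libraries of WT Tfh cells, sorted from mouse spleens on day 7 after intraperitoneal immunization with 100 µg of NP-CGG, a hapten coupled to a carrier protein, in complete Freund's adjuvant (CFA). Bob1KO cells came from FoxP3GFP/DTR CD4Cre/+Bob1fl/fl mice, in which a Cre transgene active in T cells from the thymus on removes *Pou2af1*, the gene of the transcriptional coactivator Bob1. WT cells came from FoxP3GFP/DTR CD4+/+Bob1fl/fl mice, which carry the floxed allele and the FoxP3 reporter but no Cre, so a Cre effect and a Bob1 effect cannot be told apart. The mice were on a C57BL/6 background and matched for age and sex as littermates unless otherwise stated. Cre under the Cd4 promoter also acts in cells that later become CD8 T cells, and the Tfh cells were taken as CD3+CD4+CXCR5+PD-1+ cells without GFP, which marks FoxP3+ cells in these mice.

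ICOS, when bound by ICOS ligand on B cells, recruits PI3K, which makes the lipid PIP3 and thereby activates AKT. AKT phosphorylates FOXO1, which then leaves the nucleus, and genes that FOXO1 activates, *Klf2* among them, are transcribed less. KLF2 drives the receptors with which T cells leave lymphoid tissue and restrains the Tfh fate, and ICOS signals keep KLF2 low in Tfh cells. Much of this control acts on phosphorylation and localization of proteins, which RNA levels do not record.

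Start sites of these genes were read for short sequence motifs, because Bob1 is known to act with the factors Oct-1 and Oct-2 on the octamer letters ATGCAAAT. RefSeq (GRCm38.p6) gave 11 promoter windows for the 7 genes, each from 250 bases before to 50 bases after a transcript start, and the octamer was found on either strand in 0 of them, against 1.74% of 32851 windows of all genes. The FOXO letters GTAAACA stood in 1 of the 11 windows, against 3.65% of all. The letters TAAATTTA, the core of a MEF2 binding sequence, chosen after the *Klf2* sequence had been seen, stood in 1 of the 11, against 0.545% of all. These motifs do not overlap one another here, and a match is a description of letters, not evidence of binding. Binding of MEF2 factors to the *Klf2* promoter is known from endothelial cells. Printed 5′ to 3′ on the strand of the gene are the 250 bases before the start of *Klf2*, the most abundant and most variable of the 7 genes, with the MEF2 letters in capitals from position -117, counted from the start (plus strand, chr8:72318812-72319061), and those before both starts of *Akt1*. The upstream *Akt1* start has the FOXO letters in capitals, written as the reverse complement, from position -161 (minus strand, chr12:112674885-112675134), and the downstream start has none (minus strand, chr12:112674277-112674526).
Klf2: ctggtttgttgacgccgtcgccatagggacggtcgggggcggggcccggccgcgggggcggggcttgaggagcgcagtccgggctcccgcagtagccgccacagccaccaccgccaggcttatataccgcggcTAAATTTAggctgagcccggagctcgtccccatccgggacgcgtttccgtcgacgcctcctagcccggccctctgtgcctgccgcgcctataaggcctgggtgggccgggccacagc
Akt1 upstream start: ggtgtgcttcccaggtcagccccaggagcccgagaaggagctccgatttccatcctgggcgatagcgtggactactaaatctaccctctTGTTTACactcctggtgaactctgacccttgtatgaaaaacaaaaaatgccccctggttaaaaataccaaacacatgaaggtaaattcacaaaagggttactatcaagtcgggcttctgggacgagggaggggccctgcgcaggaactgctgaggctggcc
Akt1 downstream start: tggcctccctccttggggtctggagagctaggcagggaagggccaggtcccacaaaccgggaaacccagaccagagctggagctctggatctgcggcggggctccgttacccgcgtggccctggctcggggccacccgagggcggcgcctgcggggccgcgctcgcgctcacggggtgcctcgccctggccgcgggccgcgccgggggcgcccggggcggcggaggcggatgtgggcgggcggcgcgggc
In all 6 libraries the assembled *Akt1* transcript ended at position 112674276 of chromosome 12, the downstream start. The assembly was guided by the annotation, so that end may be the annotation's own.

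Depth, estimated from the confidence intervals of the deposited values, was about 21400000, 27300000 and 19200000 mapped fragments in the Bob1KO libraries and 20700000, 21300000 and 23500000 in the WT libraries. All values are FPKM, sequenced fragments scaled to transcript length and to the mapped fragments of the library. *Pou2af1* checked the labels, with 1.16, 0.237 and 0.317 FPKM in Bob1KO libraries and 46.1, 32.5 and 34.4 FPKM in WT libraries (limma, log2 fold change -4.65, adjusted P = 0.00341). Of 10229 genes tested, 2 were called at an adjusted P below 0.05 (0.0196%), *Pou2af1* and *Pcsk1*, the second named after its values were seen, and 538 (5.26%) had an unadjusted P below 0.05. With the replicate number as a block, 1 gene was called (0.00978%), *Pou2af1*. The Tfh markers were high in every library, with summed FPKM of 10 genes between 2352 and 3144 in Bob1KO and between 2212 and 3216 in WT. The 6 measured B cell markers summed to between 2.18 and 8.22 FPKM in Bob1KO and between 4.92 and 6.89 FPKM in WT, with *Ms4a1*, *Pax5* and *Blnk* under 1 FPKM in every library. *Ighm* and *Cd74*, also listed, were not among the genes measured in all 6 libraries, so this sum leaves them out. The 9 NK and CD8 T cell markers summed to between 122 and 232 FPKM in Bob1KO. In WT they summed to between 259 and 379 FPKM, so the sums of the groups did not overlap. Of the 6 tested markers of this list, *Ccl5* alone had all Bob1KO libraries below all WT libraries, as 4.81% of all tested genes did. The log2 fold change was above 0 for 3 of the 6 and below 0 for 3, beside 49.3% of all tested genes above 0. *Ccl5* and *Nkg7*, which CD4 T cells can express too, made up most of this sum in every library. *Ccl5* had 59.6, 85.6 and 22.9 FPKM in Bob1KO libraries and 275, 159 and 99.9 FPKM in WT libraries. Of the other markers of the list, *Cd8a* and *Ncr1* were under 1 FPKM in all 6 libraries, and *Klrd1* averaged 0.914 FPKM. *Cd8b1*, *Klrb1c*, *Eomes* and *Gzma* were above 1 FPKM in every library. Over the 6 libraries they averaged 4.74, 9.42, 8.44 and 4.73 FPKM in that order. Of the 9 measured myeloid markers, the sum was 3746, 153 and 1119 FPKM in Bob1KO libraries and 610, 549 and 865 FPKM in WT libraries. *S100a8* and *S100a9* made up most of it in every library except Bob1KO replicate 2, where *Cst3* had 88.7 FPKM. *Lyz2*, also listed, was not among the genes measured in all 6 libraries, so the myeloid sum leaves it out. In these bulk libraries, fewer cells of a type and less RNA per cell cannot be told apart. The part of admixed cells in the results was not tested.

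By limma, 0 of the 7 genes were called at an adjusted P below 0.05, beside 0.0196% of all tested genes, and 1, *Foxo3*, had an unadjusted P below it, beside 5.26% of all. *Foxo3* was also the 1 gene whose Bob1KO libraries all lay above the WT libraries, which 5.87% of the 10229 tested genes did. The log2 fold change was above 0 for 5 of the 7 genes, as for 49.3% of all, and their median was 0.09, beside -0.0033 over all tested genes, and ran from 0.04 to 0.16 with a library left out. In order of mean level, *Klf2* averaged 296 FPKM over the 6 libraries, *Akt1* 106, *Pik3cd* 97.6, *Foxo1* 63.2, *Inpp5d* 34.9, *Pik3r1* 10.3 and *Foxo3* 2.07 FPKM. Each gene was above the next in 6 of 6 libraries, except that *Akt1* was above *Pik3cd* in 5 of 6, and their log2 ratio of 0.13 was within its SD of 0.16.

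**Figure D1:**
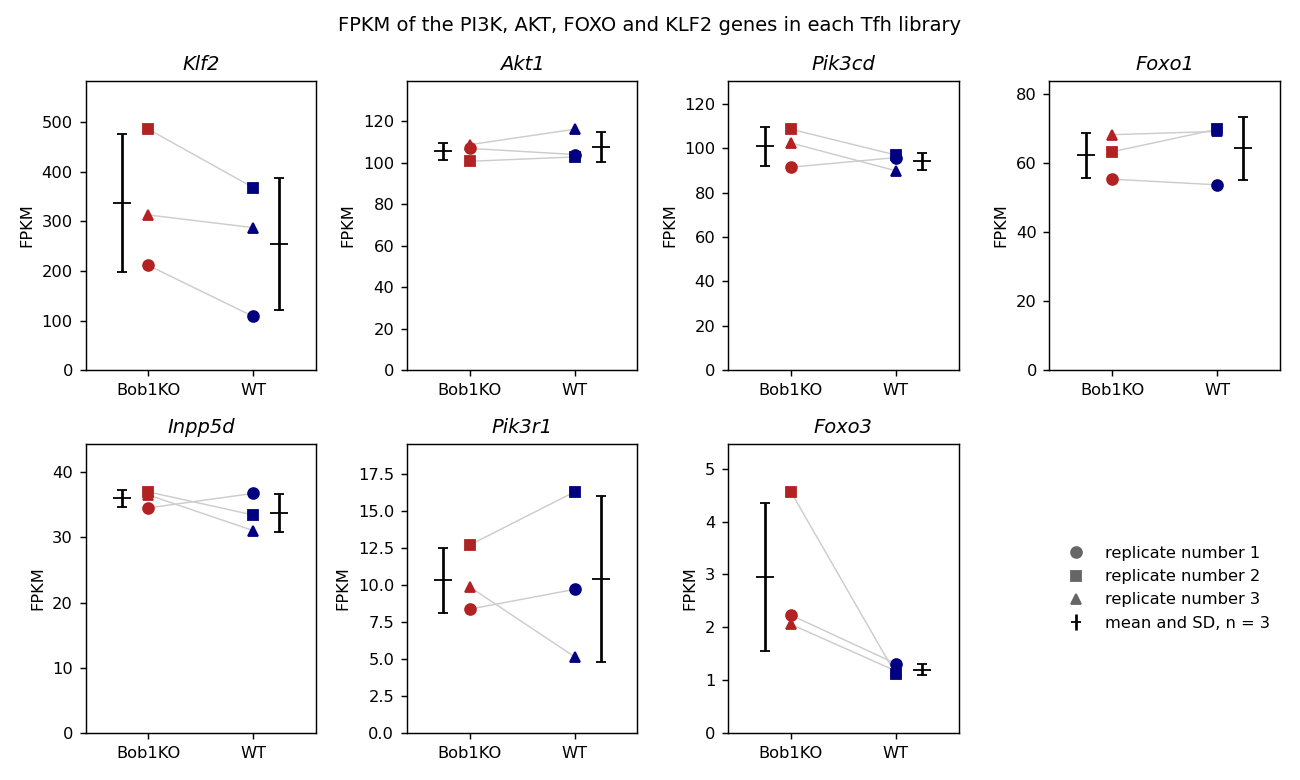
FPKM of each of the 7 genes (vertical axes, linear from 0) in the 3 Bob1KO and 3 WT Tfh libraries; marker shapes and grey lines join libraries with the same replicate number, and bars give the mean and SD. *Akt1*, *Pik3cd*, *Foxo1* and *Inpp5d* are tightly grouped, *Klf2* runs between 108 and 486 FPKM, and the *Foxo3* groups do not overlap.

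The PI3K enzyme and the phosphatase that removes its product had close levels in both groups. *Pik3cd* encodes p110δ, the catalytic subunit that carries most ICOS and T cell receptor signals in T cells. It had 91.5, 109 and 102 FPKM in Bob1KO libraries and 95.9, 97.0 and 89.9 FPKM in WT libraries, and the groups overlapped. Its log2 fold change was 0.09 with a standard error of 0.11 (limma, adjusted P = 0.957), and the 95% interval of the ratio, on the FPKM + 1 scale, ran from 0.896 to 1.27. *Inpp5d* encodes SHIP1, which converts PIP3 to a lipid with fewer phosphates. It had 34.5, 37.0 and 36.5 FPKM in Bob1KO libraries and 36.7, 33.4 and 31.0 FPKM in WT libraries, where the highest WT library lay within the Bob1KO range. Its log2 fold change was 0.09 with a standard error of 0.11 (limma, adjusted P = 0.957), and the interval of the ratio was 0.892 to 1.28.

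*Pik3r1* encodes p85α and its shorter forms, the regulatory subunits that hold and stabilize p110. It had 8.36, 12.7 and 9.86 FPKM in Bob1KO libraries and 9.70, 16.3 and 5.15 FPKM in WT libraries. The WT libraries held both the highest and the lowest value, with a WT SD of 5.60 (n = 3) around a mean of 10.4 FPKM. The log2 fold change of 0.10 had an interval of -0.76 to 0.96 (limma, adjusted P = 0.987), which leaves room for a ratio between 0.590 and 1.94. Without WT replicate 3 it was -0.28 and without WT replicate 2 it was 0.46. The *Pik3r1* values also rested on how the assembly split the gene. Separate shorter transcripts within it, not part of these values, held 6.88, 13.6 and 7.31 FPKM in Bob1KO libraries. In WT libraries they held 10.6, 12.5 and 18.4 FPKM. Adding them, an alternative chosen after seeing the data, gave 15.2, 26.3 and 17.2 FPKM in Bob1KO libraries. It gave 20.2, 28.8 and 23.5 FPKM in WT libraries, where replicate 3 was no longer the lowest.

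The wider list of class I PI3K subunits had 7 tested genes of 9, all with a log2 fold change above 0, beside 49.3% of all tested genes. The changes ran from 0.03 to 0.45, and their median of 0.10 was 0.23 without Bob1KO replicate 1. None of these genes had an unadjusted P below 0.05. The smallest belonged to *Pik3cg*, the catalytic subunit p110γ that answers chemokine receptors, with 9.36, 8.24 and 12.3 FPKM in Bob1KO libraries and 7.26, 10.5 and 4.25 FPKM in WT libraries (limma, unadjusted P = 0.174). *Pik3ca*, which encodes p110α, had 16.2, 12.2 and 15.2 FPKM in Bob1KO libraries, against 17.6, 10.8 and 6.29 FPKM in WT libraries. *Pik3r2*, which encodes the regulatory subunit p85β, was more abundant than *Pik3r1*, at 19.5, 18.6 and 20.1 FPKM in Bob1KO libraries and 20.4, 16.3 and 16.7 FPKM in WT libraries.

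Of the 8 genes listed as inhibitors of PI3K signals, 7 were tested and 6 had a log2 fold change above 0, beside 49.3% of all tested genes. The median of the list was 0.34, or 0.19 without WT replicate 3. *Phlpp1*, a phosphatase that removes an activating phosphate from AKT, had 3.95, 3.56 and 2.66 FPKM in Bob1KO libraries. In WT libraries it had 1.99, 1.82 and 0.958 FPKM. Its groups did not overlap, with a log2 fold change of 0.78 and a standard error of 0.24 (limma, unadjusted P = 0.0142, adjusted P = 0.859). *Inpp4b*, which removes a phosphate from PI(3,4)P2, was the most abundant of the list, with 60.7, 56.6 and 52.5 FPKM in Bob1KO libraries and 50.6, 48.3 and 32.5 FPKM in WT libraries. Its groups also did not overlap (limma, log2 fold change 0.39, unadjusted P = 0.0686). Bob1KO lay above WT without overlap for 2 of the 7 tested genes of the list, beside 5.87% of all tested genes. *Inppl1*, which encodes SHIP2, had 7.98, 6.13 and 6.04 FPKM in Bob1KO libraries and 7.13, 4.94 and 3.57 FPKM in WT libraries. With the replicate number as a block, *Inpp4b* and *Phlpp1* were among the genes of the list with an unadjusted P below 0.05, and none of the list passed the adjusted P, beside 6.18% of all tested genes under the unadjusted P.

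*Akt1* encodes the kinase that phosphorylates FOXO proteins. It had 107, 101 and 109 FPKM in Bob1KO libraries and 104, 103 and 116 FPKM in WT libraries, the narrowest spread of the 7 genes, its highest library being 1.15 times its lowest. The log2 fold change was -0.03 with an interval of -0.27 to 0.21 (limma, adjusted P = 0.987), a ratio between 0.830 and 1.16. The list of 16 AKT and mTOR kinases and partners was tested in full, with a median of -0.05, which ran from -0.12 without WT replicate 2 to 0.03 without WT replicate 3, and no gene at an unadjusted P below 0.05. *Akt2*, the second isoform, had 48.7, 52.2 and 50.0 FPKM in Bob1KO libraries and 56.5, 52.1 and 70.4 FPKM in WT libraries. *Rheb*, the small GTPase that activates mTORC1, had 79.8, 59.4 and 49.2 FPKM in Bob1KO libraries and 68.3, 99.1 and 73.5 FPKM in WT libraries. *Gsk3a*, a kinase that AKT inhibits, had 54.0, 51.2 and 34.4 FPKM in Bob1KO libraries, all below the 56.1, 54.6 and 54.1 FPKM of WT libraries, an order that 4.81% of all tested genes showed, though the nearest libraries were close. *Rptor*, which encodes the mTORC1 subunit Raptor, had 4.95, 6.22 and 4.29 FPKM in Bob1KO libraries and 3.92, 4.52 and 3.60 FPKM in WT libraries.

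*Foxo1* was the main FOXO transcript of these cells. It had 55.3, 63.2 and 68.2 FPKM in Bob1KO libraries and 53.7, 69.8 and 69.1 FPKM in WT libraries, with replicate 1 lowest in both groups. The log2 fold change was -0.04 with a standard error of 0.14 (limma, adjusted P = 0.987), and the interval of the ratio was 0.769 to 1.23.

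*Foxo3*, a second FOXO factor with overlapping DNA preference, was far lower than *Foxo1* on the same per-length scale. It had 2.23, 4.56 and 2.06 FPKM in Bob1KO libraries and 1.31, 1.11 and 1.17 FPKM in WT libraries. Every Bob1KO library was above every WT library, and Bob1KO replicate 2 stood well above the other Bob1KO libraries. The log2 fold change was 0.79 with a standard error of 0.27 and an interval of 0.15 to 1.43 (limma, unadjusted P = 0.0224, adjusted P = 0.922), and the exact permutation P of 0.1 is the smallest that 3 libraries against 3 can give.

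The *Foxo3* value rested on how the assembly split the gene. The deposited intervals were 1.45 to 3.01, 3.57 to 5.55 and 1.37 to 2.75 FPKM in Bob1KO libraries and 0.812 to 1.81, 0.814 to 1.41 and 0.658 to 1.69 FPKM in WT libraries, so single libraries of both groups overlapped within them. The *Foxo3* span on chromosome 10 ran from 42181845 to 42276695, on the minus strand. The rows used began between 42185745 and 42185786, short of its lower, 3′ end. Rows in the missing stretch lay in all 3 WT libraries but, of the Bob1KO libraries, in replicate 1 alone. By the intervals they held about 119, 31.0 and 88.1 fragments in WT libraries and 73.1 in Bob1KO replicate 1. The rows used held about 27.6, 56.0, 20.7 and 32.8 in the same libraries. Between 0 and 9 further unnamed rows per library, these among them, lay within the span or overhung its lower end slightly, and were not part of the values. These further rows numbered 3, 9 and 0 in Bob1KO libraries and 5, 7 and 4 in WT libraries. Adding them, an alternative chosen after seeing the data that sums short rows of different lengths, gave 5.41, 10.4 and 2.06 FPKM in Bob1KO libraries and 6.49, 7.89 and 4.50 FPKM in WT libraries, and a log2 fold change of -0.24 (limma, adjusted P = 0.977). The authors' group values from their common assembly were 2.07 FPKM for Bob1KO and 1.47 FPKM for WT.

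**Figure D2:**
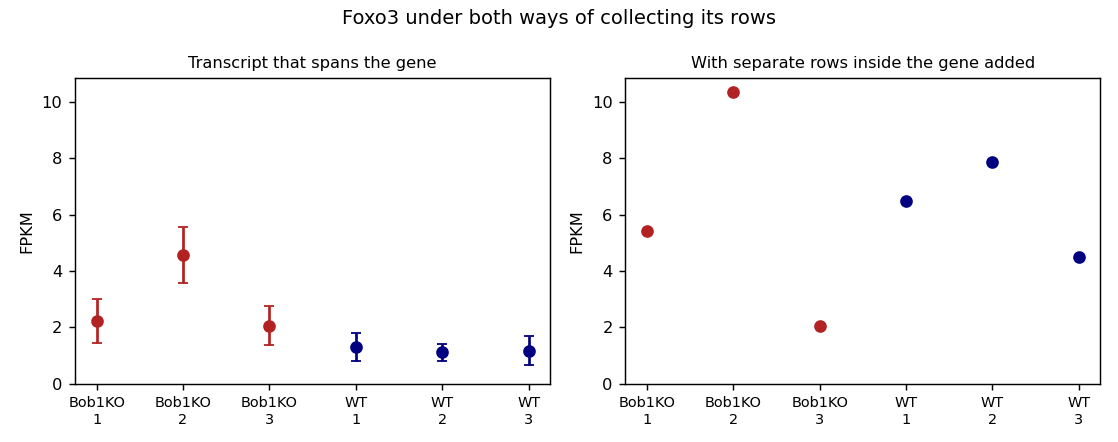
*Foxo3* FPKM in each library, Bob1KO on the left and WT on the right of each panel. The left panel shows the row assigned to the gene, which lacks its 3′ end, with the deposited confidence interval. The right panel adds the separate rows inside the gene, and no interval was computed for the sum. The groups are apart in the left panel, with WT between 1.11 and 1.31 FPKM, and overlap in the right panel.

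The other FOXO genes, outside the rule for named genes, were low. *Foxo4* lay at 0.513, 1.02 and 0.614 FPKM in Bob1KO libraries and 0.549, 0.629 and 0.483 FPKM in WT libraries and was not tested. *Foxo6* was listed at 0 in all 6 libraries.

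*Klf2* was the most abundant of the 7 genes and the one that differed most between libraries of the same group. It had 211, 486 and 313 FPKM in Bob1KO libraries and 108, 368 and 287 FPKM in WT libraries. Replicate 2 was highest and replicate 1 lowest in both groups, and the groups overlapped. The highest library was 4.48 times the lowest, whereas the median of this ratio over the 7861 tested genes with a mean of at least 5 FPKM was 1.46. The log2 fold change was 0.49 with a standard error of 0.49 and an interval of -0.66 to 1.64 (limma, unadjusted P = 0.346, adjusted P = 0.951), and the exact permutation P was 0.6. A ratio between 0.634 and 3.12 lay within that interval.

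Between libraries of the same replicate number, *Klf2* was higher in Bob1KO in 3 of 3, by 0.96, 0.40 and 0.12 on the log2 scale for numbers 1, 2 and 3. For this gene and those below, the share of all tested genes with 1 direction in each replicate number was not counted. With the replicate number as a block the standard error of *Klf2* was 0.19 and the unadjusted P was 0.0454, while the adjusted P of limma was 0.803. That placed 2 of the 7 genes, *Foxo3* and *Klf2*, under an unadjusted P of 0.05 in the fit with the block, beside 6.18% of all tested genes. WT replicate 1 decided the value without the block, and without that library the log2 fold change was -0.03. Without WT replicate 2 it was 0.84. The authors' group values were 321 FPKM for Bob1KO and 261 FPKM for WT.

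**Figure D3:**
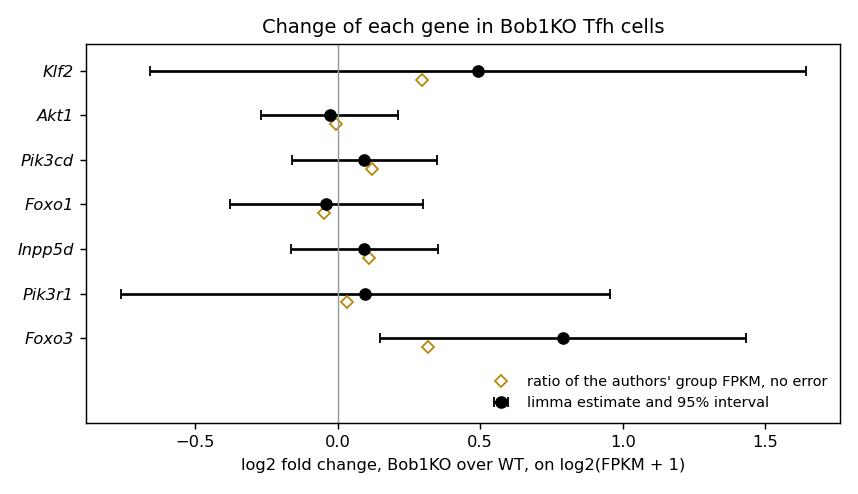
Log2 fold change of each gene, Bob1KO over WT, on log2(FPKM + 1), with genes ordered by mean level from *Klf2* at the top to *Foxo3*; filled circles and bars give the limma estimate and its 95% interval, and open diamonds the ratio of the authors' group FPKM, which has no error. The interval of *Foxo3* alone lies above 0, from 0.15 to 1.43 before adjustment over all genes, and the diamond of *Foxo3*, at 0.32, is lower than its limma estimate.

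Genes listed as FOXO1 targets, and those KLF2 is linked to, were read next. All 18 listed FOXO1 targets were tested, and 14 had a log2 fold change above 0, beside 49.3% of all tested genes. The median was 0.14, and none of the 18 had an unadjusted P below 0.05. Without WT replicate 1 the median was -0.03 and without WT replicate 3 it was 0.33. With the block, *Klf2* alone of the 18 had an unadjusted P below 0.05, beside 6.18% of all tested genes. The smallest P without the block belonged to *Bcl2l11*, which encodes the pro-apoptotic protein BIM (limma, log2 fold change 0.42, unadjusted P = 0.0755). It had 3.52, 4.13 and 3.70 FPKM in Bob1KO libraries and 2.08, 3.49 and 2.27 FPKM in WT libraries. It alone of the 18 had every Bob1KO library above every WT library, an order that 5.87% of all tested genes showed. *Cdkn1b*, which encodes the cell cycle inhibitor p27, had 17.4, 20.6 and 7.94 FPKM in Bob1KO libraries and 10.9, 10.5 and 9.82 FPKM in WT libraries. The authors' group values for *Cdkn1b* were 15.5 FPKM in both groups, beside the limma log2 fold change of 0.42. *Fbxo32*, which encodes a ubiquitin ligase subunit known as a FOXO target in muscle, had 14.9, 13.4 and 9.87 FPKM in Bob1KO libraries and 11.7, 8.17 and 11.5 FPKM in WT libraries. *Ccng2*, which encodes cyclin G2, had 39.0, 41.5 and 40.5 FPKM in Bob1KO libraries and 44.3, 38.8 and 51.7 FPKM in WT libraries. *Tcf7*, which encodes the factor TCF-1, was the most abundant, with 981, 978 and 1071 FPKM in Bob1KO libraries and 985, 950 and 874 FPKM in WT libraries.

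Of 9 genes linked to KLF2 in migration and T cell fate, 8 were tested, and 5 had a log2 fold change above 0, beside 49.3% of all tested genes. The median was 0.10 and none had an unadjusted P below 0.05, with the block or without. This median was -0.18 without WT replicate 1, -0.04 without Bob1KO replicate 3, 0.19 without Bob1KO replicate 1 and 0.26 without WT replicate 3. *S1pr1*, the receptor that takes T cells out of lymphoid tissue and a direct KLF2 target, had 92.2, 125 and 163 FPKM in Bob1KO libraries and 62.6, 121 and 135 FPKM in WT libraries. It was higher in Bob1KO in each replicate number, by 0.55, 0.05 and 0.27 on the log2 scale (limma, unadjusted P = 0.398, and with the block unadjusted P = 0.0800, adjusted P = 0.823). *Ccr7*, the receptor that holds T cells in the T zone, had 68.9, 83.5 and 101 FPKM in Bob1KO libraries and 38.4, 87.0 and 111 FPKM in WT libraries. *Cd69*, whose protein takes S1PR1 off the surface, had 92.4, 138 and 66.9 FPKM in Bob1KO libraries and 124, 122 and 112 FPKM in WT libraries. *Cxcr3*, a chemokine receptor of Th1 cells, had 155, 155 and 232 FPKM in Bob1KO libraries and 132, 145 and 203 FPKM in WT libraries. The integrin gene *Itgb7* was the most abundant, with 262, 325 and 356 FPKM in Bob1KO libraries and 215, 361 and 368 FPKM in WT libraries. *Cxcr5*, the follicle-homing receptor by which the cells were sorted, had 232, 156 and 229 FPKM in Bob1KO libraries and 264, 178 and 189 FPKM in WT libraries.

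WT replicate 1 was the lowest library for *Klf2*, *S1pr1*, *Ccr7* and *Il7r* alike, the last named after its values were seen. *Il7r*, which encodes the interleukin 7 receptor, had 18.9, 31.9 and 38.3 FPKM in Bob1KO libraries and 12.1, 31.9 and 36.4 FPKM in WT libraries. Of the 23 tested genes of both lists together, 11 were lowest in WT replicate 1, as were 12.7% of all tested genes with a mean of at least 5 FPKM. The 6 markers of naive T cells, *Ccr7* and *Il7r* among them, summed to 249, 279 and 325 FPKM in Bob1KO libraries and 165, 299 and 378 FPKM in WT libraries. WT replicate 1 also had the highest *Bcl6*, the master regulator of Tfh cells, at 73.9 FPKM beside 37.8 to 63.6 FPKM in the other libraries of both groups. The part of a differing share of naive-like cells in the *Klf2* values was not tested.

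**Figure D4:**
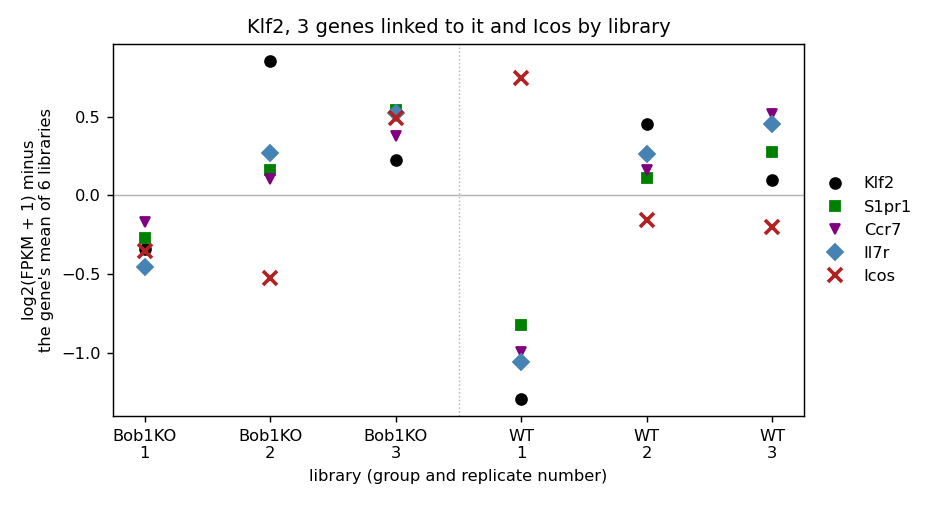
*Klf2*, *S1pr1*, *Ccr7* and *Il7r*, and *Icos* as crosses, in each library (horizontal axis, Bob1KO left and WT right of the dotted line), as log2(FPKM + 1) minus the mean of that gene over the 6 libraries. In WT replicate 1 the first 4 genes are at their lowest, *Klf2* at -1.30, and *Icos* is at its highest.

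Upstream of PI3K, *Icos* had 88.8, 78.8 and 161 FPKM in Bob1KO libraries and 192, 102 and 98.8 FPKM in WT libraries. The groups overlapped, with a log2 fold change of -0.26 and a standard error of 0.34 (limma, adjusted P = 0.957). Of the 8 tested genes of 9 listed as receptors and ligands that feed PI3K, 1 had an unadjusted P below 0.05, beside 5.26% of all tested genes, and the median was 0.02, between -0.07 and 0.11 with a library left out. This was *Cd80*, a ligand of CD28 and CTLA-4 (limma, log2 fold change 0.69, unadjusted P = 0.0204, adjusted P = 0.915). It had 3.05, 2.69 and 4.84 FPKM in Bob1KO libraries and 1.95, 1.45 and 1.89 FPKM in WT libraries. The other CD28 ligand gene, *Cd86*, also lay higher in Bob1KO without overlap, as did 5.87% of all tested genes, with 2.29, 2.26 and 2.24 FPKM in Bob1KO libraries and 1.45, 1.30 and 1.76 FPKM in WT libraries. Both are genes of antigen-presenting cells too, and their levels were low. *Cd28*, the main costimulatory receptor of T cells, had 122, 137 and 131 FPKM in Bob1KO libraries and 112, 124 and 117 FPKM in WT libraries. *Icosl*, the ligand gene, had 2.01, 1.13 and 1.44 FPKM in Bob1KO libraries and 4.21, 1.48 and 1.74 FPKM in WT libraries.

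Among genes whose products act on FOXO or KLF2 protein, all 14 listed were tested. The log2 fold change was below 0 for 10 and above 0 for 4, beside 49.3% of all tested genes above 0. The median was -0.03, or -0.10 without Bob1KO replicate 1, and none of the 14 had an unadjusted P below 0.05. The list holds 6 genes of 14-3-3 proteins, which hold phosphorylated FOXO1 outside the nucleus, and 4 of them had the smallest P of the list. The other two had log2 fold changes of 0.11 for *Ywhag* and -0.04 for *Ywhae*. *Ywhaq* had 160, 144 and 186 FPKM in Bob1KO libraries and 194, 169 and 237 FPKM in WT libraries, lower in Bob1KO in each replicate number (limma, log2 fold change -0.28, unadjusted P = 0.121, and with the block unadjusted P = 0.0414, adjusted P = 0.796). *Ywhab* had 117, 117 and 120 FPKM in Bob1KO libraries, all below the 123, 126 and 138 FPKM of WT libraries, an order that 4.81% of all tested genes showed. *Ywhah*, the most abundant by these values, had 286, 339 and 271 FPKM in Bob1KO libraries and 350, 291 and 391 FPKM in WT libraries. The authors' group values for *Ywhah* were 133 FPKM for Bob1KO and 143 FPKM for WT, below the 219 and 253 FPKM of *Ywhaq*. *Ywhaz* had 152, 144 and 165 FPKM in Bob1KO libraries and 146, 369 and 148 FPKM in WT libraries, where WT replicate 2 stood apart. The authors' group values for *Ywhaz* were 185.5 FPKM in both groups, beside the limma log2 fold change of -0.38.

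**Figure D5:**
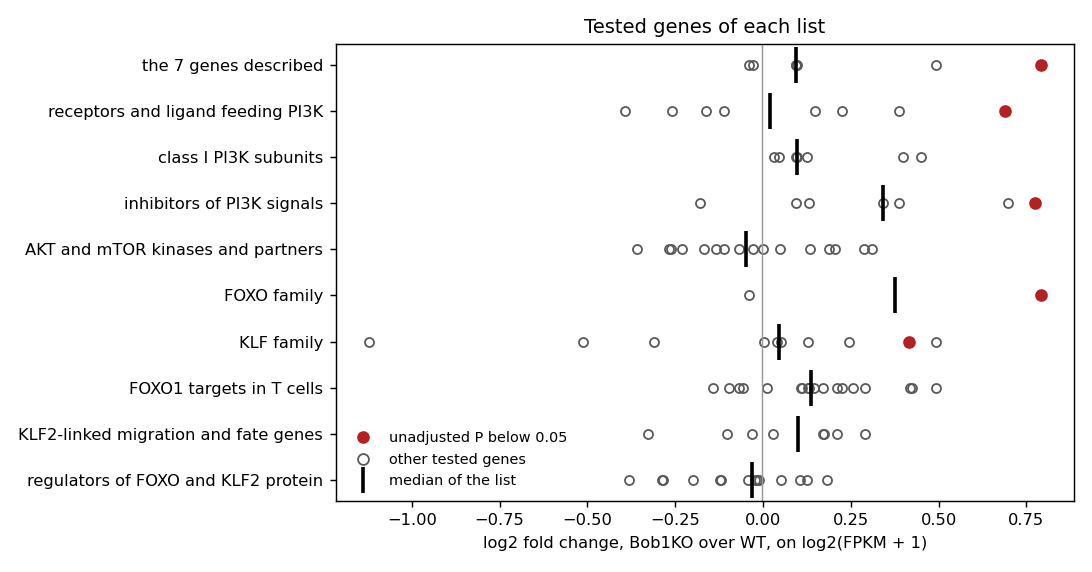
Log2 fold change, Bob1KO over WT, of every tested gene in each list (open circles; filled circles mark an unadjusted P below 0.05 in limma), with the median of the list as a bar and the median of all tested genes as a grey line. Filled circles are *Foxo3* (in 2 lists), *Cd80*, *Phlpp1* and *Klf3*, and no gene shown passed the adjusted P.

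The KLF family, *Klf2* included, gave 1 gene at an unadjusted P below 0.05 among 10 tested of 17, beside 5.26% of all tested genes. *Klf3*, a repressor that competes with other KLF factors for DNA, had 91.7, 108 and 113 FPKM in Bob1KO libraries and 62.8, 81.9 and 90.6 FPKM in WT libraries. Its groups did not overlap, with Bob1KO above WT, as for 5.87% of all tested genes (limma, log2 fold change 0.42, standard error 0.16, unadjusted P = 0.0369, adjusted P = 0.922). The authors' group values for *Klf3* were 109 FPKM for Bob1KO and 96.3 FPKM for WT, a smaller log2 ratio of 0.18. *Klf13*, known to act on *Ccl5* in T cells, had 32.5, 212 and 63.8 FPKM in Bob1KO libraries and 138, 181 and 186 FPKM in WT libraries, and Bob1KO replicate 2 was the highest library of all. The authors' group values for *Klf13* from their common assembly were 40.4 FPKM for Bob1KO and 41.4 FPKM for WT, a log2 ratio of -0.036 beside the limma value of -1.12 (unadjusted P = 0.104, adjusted P = 0.945), so both sources differ in its level and in its change. *Klf11* had 2.30, 4.21 and 1.85 FPKM in Bob1KO libraries and 5.43, 4.24 and 3.21 FPKM in WT libraries. *Klf7* had 15.2, 18.8 and 18.0 FPKM in Bob1KO libraries and 12.5, 14.2 and 16.8 FPKM in WT libraries.

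Profiles most like those of *Klf2* and *Foxo1* were sought among 7860 other tested genes with a mean of at least 5 FPKM, by the root mean square difference of centred log2(FPKM + 1) over the 6 libraries. Nearest to *Klf2* were *Dapl1*, at 0.20, *Cep192*, at 0.22, and *H3f3b*, at 0.26. *Dapl1*, one of the naive T cell markers, had 5.15, 11.0 and 7.42 FPKM in Bob1KO libraries and 2.26, 11.2 and 9.95 FPKM in WT libraries. Nearest to *Foxo1* were *Epsti1*, *C030044B11Rik* and *Crlf3*, all at 0.04. *Epsti1* had 29.6, 36.3 and 37.4 FPKM in Bob1KO libraries and 31.0, 40.0 and 39.3 FPKM in WT libraries. These likenesses describe 6 libraries and carry no test.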

How the data were processed

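The authors' FPKM were made by trimming with cutadapt 1.2.1, read filtering with PRINSEQ, alignment to GRCm38 (mm10) by TopHat2 2.0.13 and quantification by Cufflinks 2.2.1, as the submitters' processing notes and the methods of the study give. Which annotation release guided the assembly is not stated there. Libraries were made from 0.7 ng of RNA with a full-length cDNA kit that does not mark strand, so overlapping genes of both strands cannot be told apart. The deposited FPKM of each library come from transcripts assembled in that library, and the authors' table of both groups also holds a group FPKM per gene, used as a second source, and fold changes, a statistic, P and q values, which were not used.

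Rows were assigned to genes by position (at least 0.5 of the joint length shared, or a cover of at least 0.95 of a gene still without a row) and summed, which placed 90.8% to 91.6% of the FPKM of a library. A two-sided limma test (version 3.58.1, R 4.3.3) with trended variance compared log2(FPKM + 1) between the groups, with no other term, for the 10229 genes whose mean FPKM was 1 or more, and P values were adjusted over all of them by Benjamini-Hochberg. This scale understates the change of low genes. Fragments implied by the intervals were whole, within 0.05, for 41.4% to 43.5% of rows, so counts were not recovered and no count test was run. The 3 libraries of a group are labelled as separate samples, and the study describes them as specimens of separate experiments with several mice in each. The labels do not state a pairing by replicate number, and the main fit used none. Deviations from the group means correlated across genes at 0.13, 0.16 and 0.12 for equal numbers and between -0.11 and -0.03 for unequal ones. Deviations within a group sum to 0, so the values for unequal numbers are not separate evidence of a pairing. Both libraries numbered 2 held transcripts of 4 Y-linked genes, at 97.0 FPKM in Bob1KO and 87.4 FPKM in WT, and the other libraries at most 0.0256 FPKM.

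The 7 genes and all lists were chosen with earlier results of these data known. Named are the 7 genes, *Pou2af1*, *Icos*, up to 4 tested genes of each list with the smallest P and up to 2 of the most abundant, defining markers, and the 3 nearest profiles to *Klf2* and *Foxo1*. Some genes under this rule are not reported here. In simulated data on 10114 genes with 200 changed, limma recovered 54% of those changed 2-fold and 83% of those changed 4-fold, with 6 false calls. The simulated noise was independent for each gene and library, without shifts shared across a library. With 200 changed genes the adjusted P is also easier to pass than in these data, where 2 genes were called. The shares are therefore not the recovery to be had for the 7 genes. The fit was repeated with other pseudocounts, scalings, low-value filters, variance models and row assignments, with a replicate block, and with libraries left out. Tables were made with Python 3.11.15, pandas 2.3.3 and scipy 1.17.1.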

Additional observations from a re-analysis of the deposited data

How the results depend on the processing

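Of 139 values of the 7 genes under an alternative, 125 counted as the same. For a limma fit this meant the same direction and the same side of the threshold. The ratio of the authors' group FPKM has no P. It counted as the same if it kept its direction and moved by less than the SD between libraries of a group. None of the limma values reached an adjusted P of 0.05, the lowest being 0.760. *Foxo1* turned to 0.0017 with quantile normalization and 0.011 without both libraries numbered 2, and *Akt1* to 0.014 with quantile normalization. With intragenic rows also summed, chosen after seeing the data, *Foxo3* turned to -0.24 and *Pik3r1* to -0.32. The authors' group FPKM gave 0.32 for *Foxo3*. *Foxo3* has no value at a mean FPKM of at least 5. With each library left out in turn, the log2 fold change ran from -0.16 to 0.043 for *Foxo1*, 0.52 to 0.95 for *Foxo3*, -0.033 to 0.84 for *Klf2*, 0.04 to 0.16 for *Pik3cd*, -0.28 to 0.46 for *Pik3r1*, 0.04 to 0.15 for *Inpp5d* and -0.060 to 0.027 for *Akt1*. The sign turned for *Foxo1* without WT replicate 2, WT replicate 3 or Bob1KO replicate 1, for *Klf2* without WT replicate 1, for *Pik3r1* without WT replicate 3 or Bob1KO replicate 2, and for *Akt1* without WT replicate 3 or Bob1KO replicate 2.

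Over all genes, 1 passed the adjusted P with a pseudocount of 0.1, at a mean FPKM of at least 5 and with the replicate block, and 1 to 8 with a library left out (8 without WT replicate 1, 4 without WT replicate 3 and 1 without Bob1KO replicate 1). The block gave 632 genes at an unadjusted P below 0.05 and changed no other call. With no filter on low values 833 genes had an unadjusted P below 0.05. Groups did not overlap for 1833 to 2373 genes with 1 library left out and for 3452 without both libraries numbered 2, since fewer libraries separate more easily. Of 200 list medians under an alternative, 8 moved by more than the spread between libraries, 5 of them those of the FOXO family, where *Foxo3* is 1 of 2 tested genes. Of the 7 genes, *Foxo3* had the widest deposited intervals: the interval of a library had a half-width of 21.7% to 43.9% of its value, against 2.18% to 5.04% for *Klf2* and 2.13% to 2.62% for *Foxo1*. These intervals cover counting and assignment error within a library only.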
